A study of Homo sapiens with 8 samples.

Results

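The endoplasmic reticulum (ER) quality-control genes described here are 47 of the 23393 genes in a table of RNA-seq read counts. They were listed by name and by what their products do. Earlier results of these data were known at that time, so no count over the list is independent evidence. The list holds 13 chaperones and co-chaperones, 8 enzymes of disulfide formation and prolyl isomerisation, 10 genes of ER-associated degradation (ERAD), 8 sensors and transducers of the unfolded protein response (UPR), and 8 genes of translocation into and export from the ER. All 47 were found in the table, and all 47 passed the filter on low counts that left 15262 genes for testing.

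The study asked how arginine starvation acts on breast cancer cells and whether mitochondria take part in the ER response. RNA was sequenced from 8 libraries of MDA-MB-231, an established human line of a mesenchymal, triple-negative breast cancer with little of the enzyme ASS1, without which cells depend on arginine from the medium. The parental control group was parental cells in full medium, and the parental starved group was parental cells with arginine deiminase (ADI), an enzyme that degrades arginine, at 0.3 µg/mL for 48 h. The ρ0 control and ρ0 starved groups were the same line depleted of its mitochondrial DNA (ρ0 cells, p0 in the labels), without and with the same ADI treatment. Each group had 2 libraries. The study's text speaks of arginine-free medium for starvation, so the agent is given here as the labels state it. All ρ0 libraries came from 1 clone, number 27, and the methods state that the ρ0 line was kept with pyruvate, uridine and ethidium bromide, so loss of mitochondrial DNA, clone and supplements cannot be told apart. Nothing states that the 2 libraries of a group came from separate cultures, and the p-values then measure only the spread between these samples.

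Secreted and membrane proteins enter the ER through the SEC61 channel, fold with the help of chaperones such as BiP and of enzymes that make disulfide bonds, and leave in COPII vesicles. Proteins that fail to fold are drawn back into the cytosol and degraded, which is ERAD. Unfolded protein in the ER is sensed by IRE1, ATF6 and PERK. IRE1 splices XBP1 mRNA, ATF6 travels to the Golgi to be cut by the proteases S1P and S2P, and PERK phosphorylates eIF2α, and the transcription factors that follow raise chaperone and ERAD genes. Gene counts do not show XBP1 splicing, ATF6 cleavage or PERK activity, and in bulk RNA fewer transcripts per cell and fewer expressing cells cannot be told apart.

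The response elements of these promoters are shown because they are the sequences through which ATF6 and XBP1 are known to act. A promoter from RefSeq (GRCh38.p14, 250 bases before the annotated start to 50 after it) matched 43 of the 47 members by symbol. PDIA3, DERL1, DERL3 and SEC24D had no entry. Both strands were searched for the ER stress response element ERSE (CCAAT and CCACG with 9 bases of any kind between them), ERSE-II (ATTGG and CCACG with 1 base of any kind between them), the unfolded protein response element UPRE (TGACGTGG) and the cyclic AMP response element CRE (TGACGTCA, the same on both strands). An exact ERSE was found in 7 members, which is 16.28% of the 43, against 0.0916% of the 27305 genes with a promoter of the same length. ERSE-II was found in 3 members (6.977%, against 0.0696% of all genes) and the UPRE in 5 (11.63%, against 0.927%), namely DNAJC10, HYOU1, SSR3, TXNDC11 and TXNDC5. The CRE was in 1 member, CREB3L2, against 2.249% of all genes. The promoter of HSPA5, the gene of BiP, lies at chr9:125241344-125241593 on the minus strand of GRCh38.p14 and is printed from 250 bases before the start to the last base before it, with its ERSE in capitals:
HSPA5: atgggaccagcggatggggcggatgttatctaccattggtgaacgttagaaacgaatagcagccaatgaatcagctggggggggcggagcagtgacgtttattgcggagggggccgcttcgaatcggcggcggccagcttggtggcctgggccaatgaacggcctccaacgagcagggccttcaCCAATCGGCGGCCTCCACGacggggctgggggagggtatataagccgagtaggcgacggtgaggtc

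The other members with an ERSE or ERSE-II carried it in the following windows of the same build, each read in the direction of the gene with 10 bases on either side. Capitals mark the element, which appears reversed (starting with CGTGG) where it lies on the other strand.
XBP1, chr22:28800593-28800631, minus strand, ERSE: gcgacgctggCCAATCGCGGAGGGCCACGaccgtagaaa
HSP90B1, chr12:103930206-103930244, plus strand, ERSE: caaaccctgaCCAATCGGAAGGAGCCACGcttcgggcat
HSP90B1, chr12:103930311-103930349, plus strand, ERSE: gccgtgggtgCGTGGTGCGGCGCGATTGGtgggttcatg
CALR, chr19:12938374-12938412, plus strand, ERSE: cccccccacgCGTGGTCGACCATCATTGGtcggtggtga
CANX, chr5:179698768-179698806, plus strand, ERSE: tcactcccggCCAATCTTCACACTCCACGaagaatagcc
CRELD2, chr22:49918544-49918582, plus strand, ERSE: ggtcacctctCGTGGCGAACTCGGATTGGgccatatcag
PDIA6, chr2:10812843-10812881, minus strand, ERSE: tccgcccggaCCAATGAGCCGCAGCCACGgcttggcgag
HERPUD1, chr16:56932015-56932045, plus strand, ERSE-II: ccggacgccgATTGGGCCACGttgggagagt
HYOU1, chr11:119057264-119057294, minus strand, ERSE-II: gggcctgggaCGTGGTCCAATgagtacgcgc
HYOU1, chr11:119057370-119057400, minus strand, ERSE-II: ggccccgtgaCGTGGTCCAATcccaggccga
SDF2L1, chr22:21642104-21642134, plus strand, ERSE-II: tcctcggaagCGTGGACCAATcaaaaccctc
In HYOU1 the second ERSE-II overlaps the UPRE. CANX has several annotated starts, and its ERSE was found from more than 1 of them. A match is a description of the letters and no evidence of binding.

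Values below are CPM, read counts scaled to 1 common library size with TMM, which also corrects for composition, and they are given for replicates 1 and 2 in that order. A log2 difference is the fitted difference between groups, with its standard error (SE), and a fold is given where it helps. P-values come from edgeR's quasi-likelihood test fitted to all 8 libraries and were adjusted by Benjamini-Hochberg over the 15262 genes, and a gene was called when the adjusted p was under 0.05 at any fold. Total counts per library ran from 25259503 to 31022155. The line markers VIM, CD44, AXL, CAV1 and MSN summed to between 2400 and 8480 CPM in each library, and the defining luminal receptors ESR1 and PGR stayed at or under 0.18 CPM. The 7 luminal markers together were higher in the ρ0 control libraries (193 and 201 CPM) than in the parental control libraries (56.8 and 59.2). KRT19 made up most of that sum (44.4 and 46.6 CPM in parental control, 146 and 137 in ρ0 control). CDH1 and EPCAM were at 0 to 0.52 CPM in the parental libraries and at 4.31 to 23.7 CPM in the ρ0 libraries, and FOXA1 went the other way, with 7.35 and 7.36 CPM in parental control and 0.035 and 0.032 in ρ0 control. The 5 fibroblast markers summed to 9.70 to 36.5 CPM. What part these differences between the lines have in the results was not tested.

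The 2 ρ0 control libraries stood apart from each other in this gene set. Of the 47 members, 42 were higher in ρ0 control replicate 1 than in replicate 2, with a median log2 gap of 0.46, whereas the median over all tested genes was 0. In that group 17 members were more than 1.5-fold apart, against 0 in each of the other 3 groups, and over all genes 18.96% were. SEC24D differed most, at 136 and 44.2 CPM, followed by PDIA5 at 27.1 and 13.5, HSP90B1 at 900.0 and 461, and CALR at 1648 and 868. ERN1, DERL3, SEC23B, SEC61B and DNAJB11 were the 5 members that were higher in replicate 2. For many members, comparisons that use the ρ0 control group are therefore also given with either of its libraries left out. The remaining library is then assumed to vary as the other groups do. Such a run also removes the widest gap within a group from the estimate of the spread, so that more of all genes were called. Keeping a call in such a run is therefore weak support. The spread is estimated from all 8 libraries, so the gap also enters the tests within parental cells. Fitted alone, the parental libraries gave 12042 called genes in the parental response, against 10060 in the main fit. A parental difference short of the threshold is thus not evidence of no change. In turn, the other 3 groups enter the tests that use the ρ0 control group. The SE and adjusted p of those tests may thus be too small. Fitted alone, the ρ0 libraries gave 3127 called genes in the ρ0 response, against 6308 in the main fit.

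**Figure D1:**
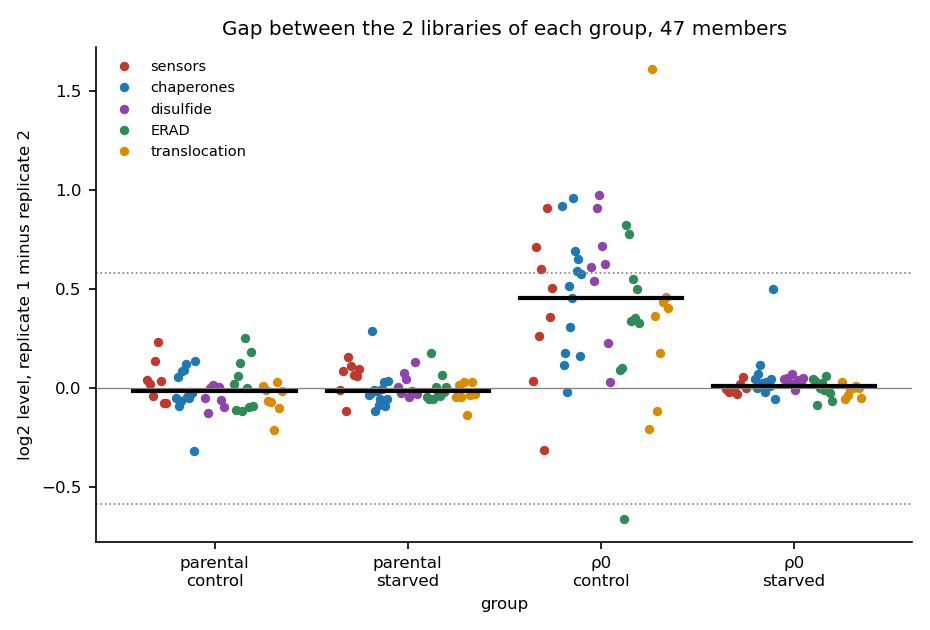
Log2 level of replicate 1 minus replicate 2 (CPM + 0.5) for each of the 47 members, by group and coloured by class, with the median of the 47 as a black bar and dotted lines at a 1.5-fold gap. The ρ0 control group has a median of 0.46 and 17 members outside the dotted lines, and the other groups have none outside them.

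Arginine starvation moved the members unevenly. In parental cells 23 of the 47 were higher and 8 lower, where 30.4% of all tested genes were called higher and 35.5% lower, 65.9% in all. In ρ0 cells 17 were higher and 5 lower, against 19.2% and 22.1% of all genes, 41.3% in all. The shares of both lines also stand beside the counts of each class below. With a log2 difference past 1 as well, 8 members were higher and 5 lower in parental cells, beside 12.7% and 22.1% of all genes, and 6 and 0 in ρ0 cells, beside 4.22% and 8.19%. The median log2 difference of the 47 was 0.35 in parental and 0.29 in ρ0 cells, beside -0.07 and -0.02 over all genes. The response itself differed between the lines (ρ0 response minus parental response) for 21 members, 10 with a larger value in ρ0 cells and 11 with a smaller one, beside 21.6% and 18.8% of all genes. At 44.7%, this share is close to the 40.4% called among all genes. The ρ0 counts depend on the ρ0 control libraries. With either of them left out more members were called, and more of all genes as well. In a fit to the ρ0 libraries alone, 10 were higher and 0 lower. That fit called 3127 of all genes, against 6308 in the main fit.

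**Figure D2:**
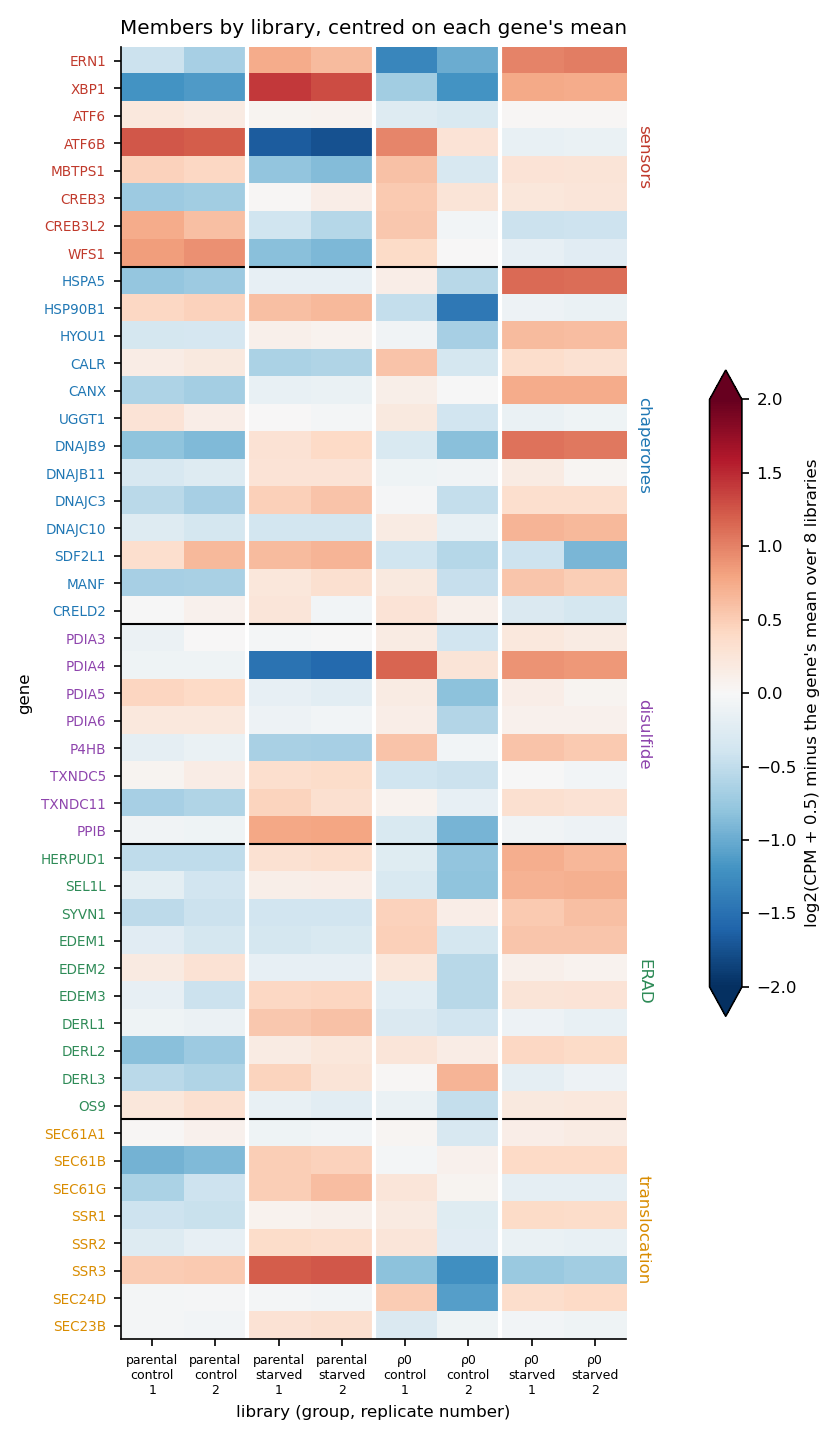
Heat map of the 47 members (rows, grouped and coloured by class) in the 8 libraries (columns), as log2(CPM + 0.5) minus the mean of the gene over the libraries, with red above and blue below that mean. XBP1 and ERN1 are red in all 4 starved libraries, ATF6B and PDIA4 are darkest blue in the parental starved libraries, and most rows are paler or bluer in ρ0 control replicate 2 than in replicate 1.

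In both lines 12 members rose, namely HSPA5, CANX, DNAJB9, DNAJC3, MANF, TXNDC11, HERPUD1, SEL1L, EDEM3, ERN1, XBP1 and SEC61B, which is 25.5% of the list, beside 13.1% of all tested genes. In both lines 3 fell, namely ATF6B, CREB3L2 and WFS1, beside 14.6% of all genes. In the fit to the ρ0 libraries alone, no member was called lower. OS9 fell in parental and rose in ρ0 cells, beside 1.99% of all genes, and SEC61G rose in parental and fell in ρ0 cells, beside 1.65%. A further 11 members passed in neither line, beside 24.1% of all genes.

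The sensors and transducers included the largest rise and the largest fall of the 47, both in parental cells. In parental cells 3 of the 8 rose, 4 fell and 1 was not past the threshold, with a median log2 difference of -0.64. In ρ0 cells 3 rose and 3 fell, with a median of -0.05. ERN1, which encodes the kinase and endoribonuclease IRE1α, stood at 25.6 and 21.7 CPM in parental control, 58.4 and 54.0 in parental starved, 13.8 and 17.3 in ρ0 control and 69.9 and 71.2 in ρ0 starved libraries. Both starved groups lay above both control groups without overlap, and the ρ0 control libraries were the lowest of all. The log2 difference was 1.25 (SE 0.13, adjusted p = 0.00014, edgeR) in parental and 2.18 (SE 0.14, adjusted p = 0.00011, edgeR) in ρ0 cells, a rise larger by 0.93 (SE 0.19, adjusted p = 0.0075, edgeR) in the latter.

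XBP1, whose mRNA IRE1 splices, showed the reverse order between the lines. It was at 79.8 and 83.9 CPM in parental control and 491 and 458 in parental starved libraries, 114 and 80.1 in ρ0 control and 310.4 and 309 in ρ0 starved libraries. The starved libraries of each line lay far above all controls, and the parental starved ones were the highest. Parental cells gained 2.53 on the log2 scale (SE 0.16) and ρ0 cells 1.68 (SE 0.15), and the ρ0 gain was smaller by 0.86 (95% interval -1.36 to -0.36, adjusted p = 0.017, edgeR). The difference was -0.58 without ρ0 control replicate 1 and -1.12 without replicate 2. It lost its call when any 1 of the other 6 libraries was left out, at values between -1.12 and -0.58 over the 8 runs.

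ATF6 and ATF6B encode related ER membrane transcription factors that are released by cleavage. ATF6 stayed within a narrow range, with 161 and 156 CPM in parental control, 145 and 146 in parental starved, 116 and 113 in ρ0 control and 141 and 141 in ρ0 starved libraries. Its log2 difference was -0.13 (SE 0.07, adjusted p = 0.14, edgeR) in parental cells, and it rose by 0.30 (SE 0.07, adjusted p = 0.011, edgeR) in ρ0 cells from the lowest control level. ATF6B fell further than any other member. It went from 129 and 126 to 16.8 and 15.8 CPM in parental cells and from 107 and 65.3 to 48.7 and 49.4 in ρ0 cells. The parental starved libraries were far under all others, and the groups of either line did not overlap. It fell by 2.97 on the log2 scale (SE 0.22, adjusted p = 2.9e-05, edgeR) in parental cells and fell by 0.82 (SE 0.20, adjusted p = 0.015, edgeR) in ρ0 cells. The responses differed by 2.15 (SE 0.29, adjusted p = 0.0017, edgeR), and by 2.56 and 1.81 without ρ0 control replicates 1 and 2. After starvation ATF6B was thus 3.01-fold higher in ρ0 than in parental cells.

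MBTPS1, which encodes the Golgi protease S1P that cuts ATF6, and WFS1, an ER membrane protein known to restrain ATF6, fell with ATF6B in parental cells. MBTPS1 was at 181 and 177 CPM in parental control, 76.0 and 72.4 in parental starved, 199 and 106 in ρ0 control and 160.0 and 157 in ρ0 starved libraries. It fell by 1.27 on the log2 scale in parental cells (SE 0.25, adjusted p = 0.0029, edgeR). In ρ0 cells the starved libraries lay between the 2 control libraries, and the sign turned with the library left out, from 0.59 without replicate 1 to -0.31 without replicate 2. WFS1 was at 89.3 and 94.0 CPM in parental control, 27.8 and 26.6 in parental starved, 64.8 and 50.3 in ρ0 control and 44.3 and 42.5 in ρ0 starved libraries. It fell in both lines with no overlap, by 1.76 (SE 0.13) in parental and 0.41 (SE 0.12) in ρ0 cells, and the responses differed by 1.35 (adjusted p = 0.0015, edgeR).

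CREB3 and CREB3L2 encode membrane-bound factors of the CREB3 family, which are processed like ATF6. CREB3 was at 33.2 and 34.1 CPM in parental control and 56.2 and 60.8 in parental starved, 80.0 and 66.5 in ρ0 control and 65.0 and 65.5 in ρ0 starved libraries. It rose by 0.80 on the log2 scale in parental cells (SE 0.11, adjusted p = 0.0004, edgeR), and its difference in ρ0 cells was -0.17 (95% interval -0.41 to 0.08). CREB3L2 was at 230.3 and 209 CPM in parental control, 104 and 93.1 in parental starved, 202 and 133 in ρ0 control and 102 and 103 in ρ0 starved libraries. It fell in both lines, by 1.16 (SE 0.18) and 0.70 (SE 0.18), and the 4 starved libraries of both lines lay between 93.1 and 104 CPM. Without ρ0 control replicates 1 and 2 in turn, the ρ0 response was 2.03 and 2.36 for ERN1, 1.95 and 1.46 for XBP1 and 0.32 and 0.30 for ATF6. It was -0.41 and -1.12 for ATF6B, -0.37 and -0.96 for CREB3L2, -0.21 and -0.56 for WFS1 and -0.03 and -0.28 for CREB3, so that every sensor but MBTPS1 kept its sign. Of the sensor calls, those of ATF6, ATF6B, CREB3L2 and WFS1 in ρ0 cells and the differences of XBP1, ATF6 and MBTPS1 between responses were lost in at least 1 run with a library of another group left out. With a GC and length trend removed from the counts, the difference of ATF6 in ρ0 cells was 0.18 (adjusted p = 0.058, edgeR).

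**Figure D3:**
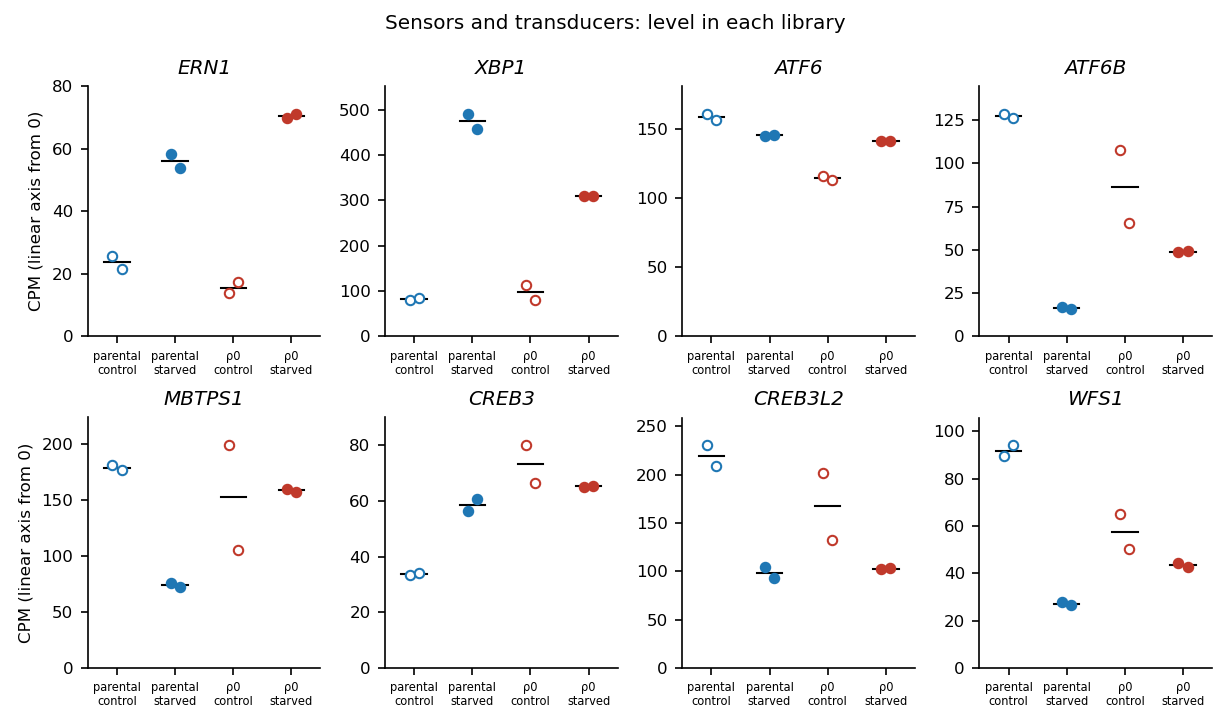
CPM of the 8 sensors and transducers in each library (points; open for control, filled for starved, blue for parental, red for ρ0), with the mean of each group as a black line and a linear axis from 0 in each panel. XBP1 and ERN1 rise in both lines, and ATF6B, MBTPS1 and WFS1 are lowest in the parental starved libraries.

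Among the 13 chaperones 6 rose and CALR alone fell in parental cells, and 7 rose and CRELD2 alone fell in ρ0 cells, with medians of 0.42 and 0.63. HSPA5 encodes BiP, the ER HSP70 that also binds the luminal sides of the sensors. It stood at 688 and 711 CPM in parental control, 1055 and 1058 in parental starved, 1302 and 805 in ρ0 control and 2601 and 2554 in ρ0 starved libraries. The ρ0 starved libraries were the highest and no groups of 1 line overlapped. It rose by 0.59 on the log2 scale in parental cells (SE 0.19, adjusted p = 0.028, edgeR) and by 1.29 in ρ0 cells (SE 0.20, adjusted p = 0.0021, edgeR). The difference between these responses was 0.70 (95% interval 0.05 to 1.34) and did not pass after adjustment (adjusted p = 0.08, edgeR). That difference was 1.09 without ρ0 control replicate 1 and 0.37 without replicate 2.

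Of the 4 J-domain co-chaperones that work with BiP, DNAJB9 and DNAJC3 rose in both lines, DNAJB11 in parental cells and DNAJC10 in ρ0 cells. DNAJB9 (ERdj4), known to act on IRE1 and in ERAD, was at 23.9 and 22.4 CPM in parental control and 51.1 and 55.4 in parental starved libraries, and at 33.7 and 23.3 in ρ0 control and 89.3 and 87.6 in ρ0 starved libraries. It rose 2.30-fold in parental (log2 difference 1.20, SE 0.16) and 3.10-fold in ρ0 cells (1.63, SE 0.16), with no overlap in either line. DNAJC3 (p58IPK), an inhibitor of PERK, was at 88.9 and 81.7 CPM in parental control, 182 and 193 in parental starved, 128 and 92.9 in ρ0 control and 163 and 165 in ρ0 starved libraries. It rose 2.19-fold (log2 difference 1.13, SE 0.14) and 1.49-fold (0.57, SE 0.14). DNAJB11 (ERdj3) rose in parental cells, from 110.5 and 116 to 167 and 168 CPM, and went from 130.0 and 131 to 155 and 143 CPM in ρ0 cells (adjusted p = 0.087, edgeR). Its response was smaller in ρ0 cells by 0.38 (adjusted p = 0.028, edgeR). DNAJC10 (ERdj5), a reductase that opens disulfides before ERAD, had a larger response in ρ0 cells. It was at 210.0 and 197 CPM in parental control and 194 and 196 in parental starved libraries, and rose from 283 and 228 to 403 and 397 in ρ0 cells, a difference between responses of 0.70 (SE 0.15, adjusted p = 0.01, edgeR).

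HSP90B1 (GRP94), the ER HSP90, was the chaperone with the largest difference between the lines in control medium. It was at 1664 and 1717 CPM in parental control, 1896 and 1967 in parental starved, 900.0 and 461 in ρ0 control and 1168 and 1141 in ρ0 starved libraries. All ρ0 libraries lay under all parental libraries, with a line difference in control medium of -1.31 (SE 0.26, adjusted p = 0.0035, edgeR). That difference was -1.87 without ρ0 control replicate 1 and -0.85 without replicate 2. Starvation gave 0.19 (adjusted p = 0.54, edgeR) in parental and 0.76 (95% interval 0.15 to 1.37, adjusted p = 0.0503, edgeR) in ρ0 cells. HYOU1 (GRP170), an exchange factor of BiP, was at 481 and 486 CPM in parental control, 656 and 642 in parental starved, 584 and 386 in ρ0 control and 954 and 946 in ρ0 starved libraries. It rose in ρ0 cells (0.97, SE 0.17, adjusted p = 0.0038, edgeR) and missed the threshold in parental cells (0.42, adjusted p = 0.058, edgeR).

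Calnexin (CANX) and calreticulin (CALR), the membrane and soluble lectins of glycoprotein folding, parted in parental cells. CANX rose from 1239 and 1191 to 1711 and 1739 CPM in parental and from 2055 and 1889.9 to 3192 and 3184 CPM in ρ0 cells, by 0.51 (SE 0.08) and 0.69 (SE 0.08) on the log2 scale. CALR fell by 0.80 (SE 0.25, adjusted p = 0.024, edgeR) in parental cells and differed by 0.15 in ρ0 cells, where both starved libraries lay between the 2 controls. UGGT1, the glucosyltransferase that returns glycoproteins to these lectins, passed in neither line (-0.23 and -0.04). The ρ0 response of CALR was 0.68 without ρ0 control replicate 1 and -0.23 without replicate 2. That of UGGT1 was 0.28 and -0.29 in these runs.

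The small secreted or luminal chaperone partners also divided. MANF, a stress-induced factor that binds BiP, was at 65.7 and 66.7 CPM in parental control, 122 and 129.8 in parental starved, 119 and 75.7 in ρ0 control and 153 and 148 in ρ0 starved libraries. It rose in parental (0.93, SE 0.19) and ρ0 cells (0.63, SE 0.18, 0.99 and 0.35 without ρ0 control replicates 1 and 2). CRELD2 was at 15.7 and 16.8 CPM in parental control and 18.8 and 15.3 in parental starved libraries, which overlapped. It fell from 19.4 and 17.0 to 12.9 and 12.3 CPM in ρ0 cells (-0.53, SE 0.14, adjusted p = 0.018, edgeR). SDF2L1, which is found with BiP and J-domain partners, was at 25.7 and 32.1 CPM in parental control and 31.8 and 33.0 in parental starved, 15.3 and 13.6 in ρ0 control and 15.2 and 10.6 in ρ0 starved libraries. It passed in neither response and was lower in the ρ0 line (-1.004 in control medium, SE 0.19, adjusted p = 0.0024, edgeR).

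With ρ0 control replicates 1 and 2 left out in turn, the ρ0 responses of the following chaperones moved in size and kept their sign. They were 1.68 and 0.998 for HSPA5, 1.30 and 0.72 for HYOU1, 0.76 and 0.65 for CANX and 1.32 and 0.37 for HSP90B1. Those of the co-chaperones were 1.92 and 1.41 for DNAJB9, 0.82 and 0.37 for DNAJC3, 0.81 and 0.51 for DNAJC10 and 0.18 and 0.21 for DNAJB11. CRELD2 had -0.43 and -0.60.

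The members with an ERSE or ERSE-II shown above did not move as 1 block. In parental cells XBP1, HERPUD1, HSPA5 and CANX rose, CALR fell, and HSP90B1, HYOU1, CRELD2, PDIA6 and SDF2L1 were not past the threshold, with a median of 0.31 over the 10. In ρ0 cells XBP1, HSPA5, HERPUD1, HYOU1 and CANX rose and CRELD2 fell, with a median of 0.73. The 33 members whose promoter window held neither element had medians of 0.35 in parental and 0.29 in ρ0 cells, with 17 higher and 7 lower in the first and 12 higher and 4 lower in the second.

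**Figure D4:**
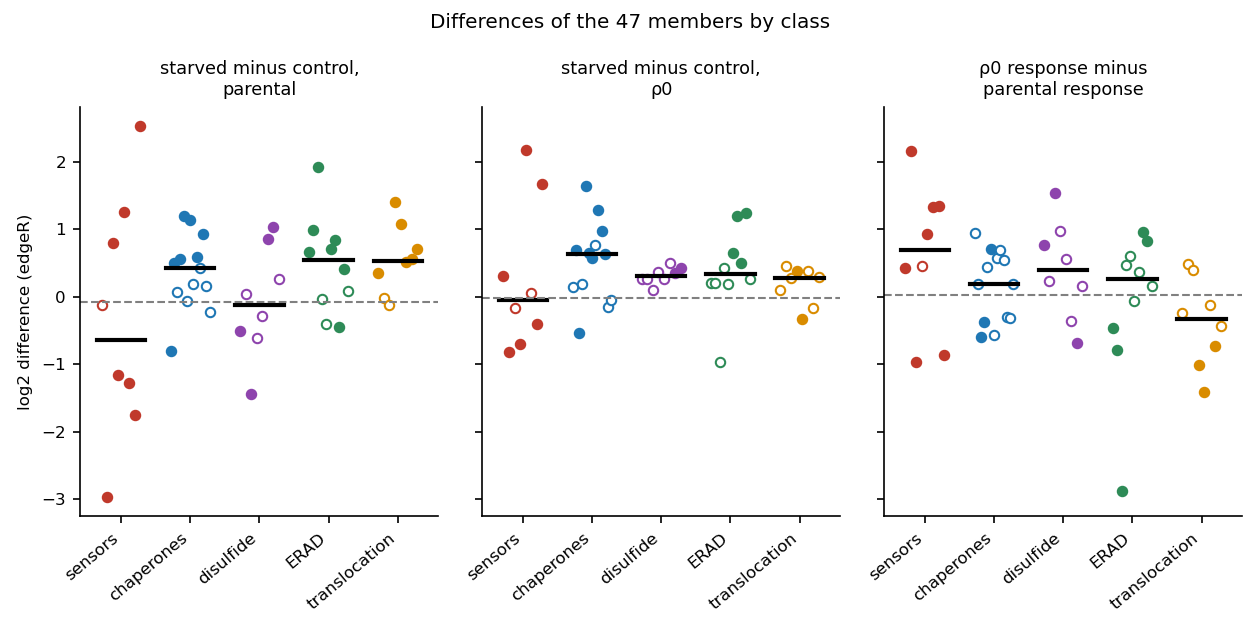
Log2 differences of the 47 members by class for starvation in parental cells, starvation in ρ0 cells and the difference between these responses, with filled points past an adjusted p of 0.05, black bars at the class medians and a dashed line at the median of all tested genes. The sensors spread from -2.97 to 2.53 in parental cells, and the translocation class has a median of 0.54 in parental and 0.28 in ρ0 cells.

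The disulfide and isomerase class was the one in which as many members rose as fell in parental cells, 2 each of 8, and in which 2 rose and none fell in ρ0 cells. PDIA4 (ERp72), an oxidoreductase, was at 184 and 184 CPM in parental control and 69.9 and 66.2 in parental starved libraries. In ρ0 cells it was at 439 and 233 in control and 364 and 357 in starved libraries, which lay between the 2 controls. It fell by 1.44 on the log2 scale in parental cells (SE 0.25, adjusted p = 0.0016, edgeR), and the responses differed by 1.54 (SE 0.35, adjusted p = 0.012, edgeR). The ρ0 response was 0.63 without ρ0 control replicate 1 and -0.27 without replicate 2, so its sign rests on 1 library, while the difference between responses was 2.07 and 1.13. After starvation PDIA4 was 5.30-fold higher in ρ0 than in parental cells (log2 difference 2.41, SE 0.26), the largest such difference among the 47.

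P4HB, the founding protein disulfide isomerase, was at 854 and 883 CPM in parental control, 614 and 611 in parental starved, 1427 and 932 in ρ0 control and 1435 and 1390.0 in ρ0 starved libraries. It fell in parental cells (-0.50, SE 0.18, adjusted p = 0.036, edgeR), and the call was lost with the GC and length trend removed (-0.26, adjusted p = 0.22, edgeR). TXNDC11, an ER thioredoxin-domain protein linked to ERAD, rose in both lines, from 23.5 and 24.5 to 51.3 and 46.8 CPM in parental and from 39.1 and 33.3 to 46.6 and 45.6 CPM in ρ0 cells. Its response was smaller in ρ0 cells by 0.68 (SE 0.15, adjusted p = 0.011, edgeR). PPIB (cyclophilin B), a prolyl isomerase, was at 167 and 166 CPM in parental control, 299.7 and 302 in parental starved, 142 and 91.9 in ρ0 control and 167 and 163 in ρ0 starved libraries. It rose in parental cells (0.86, SE 0.18), and its ρ0 difference of 0.50 missed the threshold (adjusted p = 0.058, edgeR). TXNDC5 was low, at 8.12 and 8.72 CPM in parental control, 9.98 and 10.2 in parental starved, 5.79 and 5.66 in ρ0 control and 7.81 and 7.50 in ρ0 starved libraries. Its rise in ρ0 cells was 0.42 (SE 0.12, adjusted p = 0.031, edgeR). Without ρ0 control replicates 1 and 2 in turn, the ρ0 response was 0.44 and 0.42 for TXNDC5, 0.47 and 0.25 for TXNDC11, 0.85 and 0.23 for PPIB and 0.60 and -0.00 for P4HB.

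PDIA3, PDIA5 and PDIA6 passed in neither response, with log2 differences of 0.04, -0.61 and -0.29 in parental and 0.26, 0.36 and 0.27 in ρ0 cells. Their ρ0 values also turned on the ρ0 control library left out. Without replicates 1 and 2 in turn they were 0.56 and 0.03 for PDIA3, 0.95 and -0.04 for PDIA5 and 0.67 and -0.04 for PDIA6. Of the exons of TXNDC5, 82.3% overlap the read-through gene BLOC1S5-TXNDC5 on the same strand, and 48.0% of those of PPIB overlap SNX22 on the other strand. The strand setting of the counting is not given in the sources used here, so reads of such neighbours and of these members cannot be told apart.

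In ERAD 6 of 10 members rose and OS9 alone fell in parental cells, and 4 rose and none fell in ρ0 cells, with medians of 0.54 and 0.34. HERPUD1, which assembles the HRD1 ligase complex, was at 53.3 and 53.2 CPM in parental control, 93.6 and 96.2 in parental starved, 64.2 and 43.7 in ρ0 control and 126 and 121 in ρ0 starved libraries. It rose 1.78-fold in parental (adjusted p = 0.0026, edgeR) and 2.29-fold in ρ0 cells (adjusted p = 0.0013, edgeR). Without ρ0 control replicates 1 and 2 in turn, the ρ0 rise was 1.502 and 0.96 for HERPUD1, 1.51 and 1.02 for SEL1L, 0.69 and 0.34 for OS9 and 0.83 and 0.49 for EDEM3. SEL1L, the adaptor that holds that complex together, was at 227 and 200.4 CPM in parental control and 284 and 287 in parental starved, 212 and 149 in ρ0 control and 422 and 429 in ρ0 starved libraries. Its rise was 0.41 (SE 0.15, adjusted p = 0.046, edgeR) in parental and 1.24 (SE 0.16, adjusted p = 0.001, edgeR) in ρ0 cells, larger in the latter by 0.82 (adjusted p = 0.022, edgeR). With the GC and length trend removed, the parental value was 0.15 and not called (adjusted p = 0.32, edgeR). SYVN1, the HRD1 ligase itself, was at 63.5 and 67.7 CPM in parental control, 70.1 and 69.8 in parental starved, 126 and 100.3 in ρ0 control and 132 and 138 in ρ0 starved libraries. It passed in neither response and was 1.73-fold higher in ρ0 than in parental cells in control medium (log2 difference 0.79, SE 0.11).

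OS9, a lectin that passes misfolded glycoproteins to SEL1L, moved in opposite directions. It was at 211 and 225 CPM in parental control and 163 and 155 in parental starved, 165 and 129 in ρ0 control and 206 and 208 in ρ0 starved libraries. It fell by 0.45 on the log2 scale (SE 0.12, adjusted p = 0.011, edgeR) in parental cells and rose by 0.50 (SE 0.12, adjusted p = 0.013, edgeR) in ρ0 cells. The parental call was lost with the GC and length trend removed (-0.31, adjusted p = 0.057, edgeR). The difference of 0.95 (SE 0.17, adjusted p = 0.0046, edgeR) was 1.14 and 0.76 without ρ0 control replicates 1 and 2. EDEM3, one of 3 listed mannosidase-like proteins that mark glycoproteins for ERAD, rose from 104 and 86.9 to 155 and 157 CPM in parental and from 100.4 and 79.2 to 139.9 and 141 CPM in ρ0 cells. Its kin EDEM1 and EDEM2 passed in neither line, with -0.04 and -0.40 in parental and 0.42 and 0.20 in ρ0 cells. Without ρ0 control replicates 1 and 2 in turn, the ρ0 response was 0.90 and 0.08 for EDEM1 and 0.64 and -0.13 for EDEM2.

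The 3 derlins, membrane proteins of the retrotranslocation channel, rose in parental cells and passed in none of the ρ0 tests. DERL2 was at 31.2 and 33.7 CPM in parental control, 63.1 and 65.5 in parental starved, 66.5 and 61.9 in ρ0 control and 75.0 and 73.1 in ρ0 starved libraries. The parental controls were the lowest, and the parental rise of 0.99 (SE 0.08, adjusted p = 5e-05, edgeR) stood beside a line difference in control medium of the same size (0.99, SE 0.08). The ρ0 response was smaller by 0.78 (adjusted p = 0.0025, edgeR). DERL1 rose by 0.66 (SE 0.07) in parental cells and differed by 0.20 in ρ0 cells (95% interval 0.03 to 0.38). DERL3, the least expressed of the 47, had 8 and 6 counts in parental control, 24 and 22 in parental starved, 17 and 38 in ρ0 control and 13 and 12 in ρ0 starved libraries. Its log2 difference was 1.92 (SE 0.45, adjusted p = 0.0069, edgeR) in parental and -0.96 (SE 0.40, adjusted p = 0.095, edgeR) in ρ0 cells. Since 87.3% of its exon bases overlap SMARCB1 on the other strand, its few counts and reads of that gene cannot be told apart.

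The translocation genes rose in parental cells and mostly did not pass in ρ0 cells. In parental cells 6 of 8 members rose and none fell, and in ρ0 cells 1 rose (SEC61B) and 1 fell (SEC61G). None of the 8 had a larger response in ρ0 cells and 3 had a smaller one, namely SEC61G, SEC61B and SSR2. Over all genes these shares were 21.6% and 18.8%. SEC61B, a small subunit of the channel, was at 52.2 and 54.7 CPM in parental control, 142 and 139 in parental starved, 98.5 and 107 in ρ0 control and 134 and 134 in ρ0 starved libraries. The parental controls were lowest, and the 4 starved libraries of both lines lay together. It rose by 1.40 (SE 0.08, adjusted p = 1.2e-05, edgeR) in parental and 0.38 (SE 0.08, adjusted p = 0.0064, edgeR) in ρ0 cells, a difference of -1.02 (SE 0.11, adjusted p = 0.00075, edgeR). SEC61G, the other small subunit, was at 81.7 and 94.6 CPM in parental control and 177 and 195 in parental starved, 149.6 and 132 in ρ0 control and 112 and 112 in ρ0 starved libraries. It rose by 1.08 in parental cells (SE 0.11, adjusted p = 9.2e-05, edgeR) and fell by 0.33 in ρ0 cells (SE 0.10, adjusted p = 0.038, edgeR), responses that differed by -1.41 (SE 0.15, adjusted p = 0.00073, edgeR). Without ρ0 control replicates 1 and 2 in turn, the ρ0 response was 0.33 and 0.45 for SEC61B and -0.24 and -0.41 for SEC61G. SEC61A1, which forms the pore, passed in neither (-0.12 and 0.28).

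The signal sequence receptor (TRAP) subunits accompany the channel. SSR2 was at 192 and 205 CPM in parental control, 297 and 289.9 in parental starved, 272 and 198 in ρ0 control and 209 and 208 in ρ0 starved libraries. It rose in parental cells (0.56, SE 0.14) and the ρ0 starved libraries lay between the 2 ρ0 controls, with a difference between responses of -0.73 (adjusted p = 0.023, edgeR). SSR3 was at 670.2 and 677 CPM in parental control, 1093 and 1115 in parental starved, 266 and 201 in ρ0 control and 279.9 and 289 in ρ0 starved libraries. It rose in parental cells (0.71, SE 0.13), and in control medium it was lower in ρ0 cells by 1.53 on the log2 scale (SE 0.13, adjusted p = 4.9e-05, edgeR), the largest fall between the lines among the 47. SSR1 rose in parental cells by 0.51 and missed the threshold in ρ0 cells (0.39, adjusted p = 0.0501, edgeR). The parental call of SSR1 was lost with the GC and length trend removed (0.23, adjusted p = 0.1, edgeR). Of the COPII coat genes, SEC23B rose by 0.35 (SE 0.09) in parental cells and SEC24D passed in neither response, with ρ0 values of 1.49 and -0.12 without ρ0 control replicates 1 and 2.

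**Figure D5:**
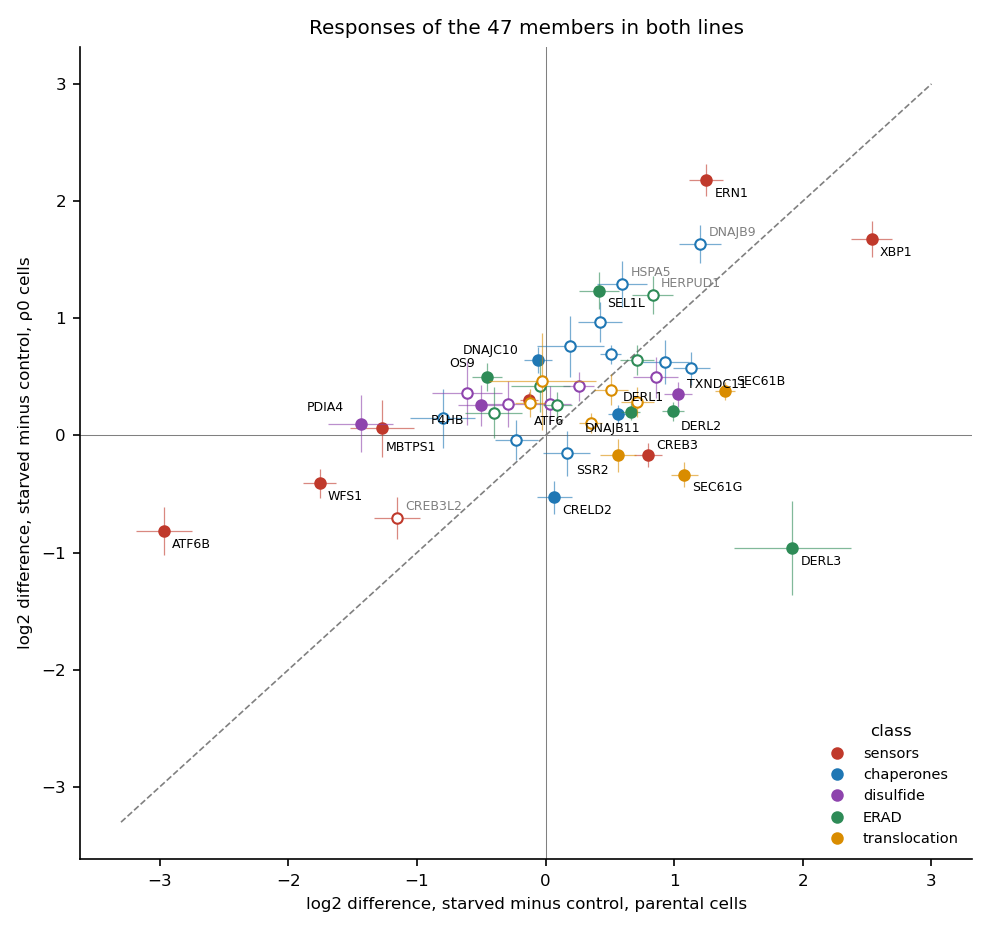
Log2 difference under starvation in ρ0 cells (vertical) against that in parental cells (horizontal) for the 47 members, coloured by class, with bars of 1 SE, filled where the responses differed past an adjusted p of 0.05 and a dashed line of equal responses. The comparisons share no libraries, ERN1 lies above and XBP1 below the line, SEC61B and SEC61G lie under it, and ATF6B, WFS1, MBTPS1 and PDIA4 lie far to the left.

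The 21 members whose responses differed kept their sign with either ρ0 control library left out. Keeping a call in those runs is a weak test, since they remove the widest gap from the estimate of the spread. The calls of DERL2, DERL3, OS9, ERN1, ATF6B, CREB3, WFS1, SEC61B and SEC61G also held with each of the other 6 libraries left out in turn and under every other way of scaling, filtering or testing that gave them a value. The remaining 12 lost their call in at least 1 of those runs. For starvation in parental cells 23 of 31 calls held throughout. The 8 that did not were HSPA5, CALR, P4HB, SEL1L, OS9, SSR1, SSR2 and SEC23B. With single libraries left out, HSPA5 was called in 4 of 8 runs, at 0.57 to 0.63, and CALR in 2 of 8, at -0.82 to -0.76. For starvation in ρ0 cells 10 of 22 calls held, namely HSPA5, HYOU1, CANX, DNAJB9, DNAJC10, HERPUD1, SEL1L, EDEM3, ERN1 and XBP1.

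Without starvation the lines themselves differed in 25 members, 14 higher and 11 lower in ρ0 control cells, where 30.5% and 31.8% of all genes were called, 62.3% in all. With a log2 difference past 1 as well, 2 were higher and 3 lower, beside 13.6% and 17.3% of all genes. SEC61B (0.94), DERL2 (0.99) and CREB3 (1.12) were among the larger rises, beside CANX (0.70) and PDIA4 (0.87). SSR3 and HSP90B1 were the largest falls, followed by SDF2L1 (-1.004), WFS1 (-0.67) and ERN1 (-0.60). ATF6 was lower by 0.47 (SE 0.07, adjusted p = 0.00072, edgeR) and ATF6B by 0.56 (SE 0.20). These counts also depend on the ρ0 control libraries. Without replicate 1 most of the called members were lower, and without replicate 2 most were higher. More of all genes were called in both runs as well. All 25 called members kept their sign in both runs, with line differences of 0.34 and 1.31 for PDIA4, 0.98 and 1.30 for CREB3, 0.94 and 1.09 for DERL2, -1.75 and -1.29 for SSR3, -1.09 and -0.86 for SDF2L1 and -0.45 and -0.72 for ERN1. In starved cells 15 members were higher and 11 lower in the ρ0 line, beside 32.9% and 33.5% of all genes, 66.5% in all. Past a log2 difference of 1 there were 6 and 2, beside 18.7% and 16.8%. PDIA4 (2.41), ATF6B (1.59), HSPA5 (1.29), P4HB (1.21), MBTPS1 (1.10) and DNAJC10 (1.04) were the 6 higher, and SSR3 (-1.96) and SDF2L1 (-1.32) the 2 lower.

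Levels were compared between genes only as CPM per kilobase of the longest protein-coding GENCODE transcript of each gene. The places below depend on that choice of transcript. In parental control cells CALR led at 659 CPM per kb, followed by HSP90B1 at 591, P4HB at 334 and CANX at 285. In ρ0 starved cells the order was CANX at 748, CALR at 731, HSPA5 at 660 and P4HB at 543, and HSP90B1 was in place 5 at 404. CANX (749 and 748 in the 2 libraries) and CALR (743 and 719.6) did not overlap there, although they were apart by less than the gap within CALR. XBP1 went from place 21 of 47 in parental control to place 8 in parental starved cells, and ATF6B from place 19 to 45. DERL3, TXNDC5 and ERN1 held the last places in control cells of both lines, at 0.1 to 3.0 CPM per kb. The summed CPM of all 47 members was 11869 and 11950 in parental control, 13581 and 13729 in parental starved, 14083 and 9807 in ρ0 control and 17591 and 17384 in ρ0 starved libraries. The ρ0 starved sum was thus the highest, above either ρ0 control library, and the chaperones alone made up 10465 and 10308 of it.

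The members that fell in parental cells had a median transcript GC content of 54.3%, against 47.7% for those that rose. All tested genes showed the same order, with 51.2% for the 5423 called lower and 46.5% for the 4637 called higher. Removing a smooth trend in GC content and length from each library left 24 members higher and 9 lower in parental cells and 19 and 4 in ρ0 cells. The part of GC content in single results was not tested beyond this.

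Around the members, 104 further ER and secretory genes were listed, and 100 were tested. In parental cells 47 were higher and 16 lower, beside 30.4% and 35.5% of all tested genes. In ρ0 cells 35 were higher and 9 lower, beside 19.2% and 22.1%. The medians were 0.28 and 0.21, and the same shares stand beside the counts of each list below. The PERK arm rose in both lines with 5 of 6 genes. PPP1R15A (GADD34), which recruits the eIF2α phosphatase, rose by 4.21 on the log2 scale in parental and 2.01 in ρ0 cells, ATF4 by 1.75 and 0.89, and DDIT3 (CHOP) by 1.27 and 1.86. The exceptions, named after their values were seen, were TRIB3 in parental (-0.09) and EIF2AK3, which encodes PERK, in ρ0 cells (0.54). The 2 ρ0 control libraries also lay apart here. PPP1R15A was at 138 and 338 CPM in them, ATF4 at 144 and 201 and DDIT3 at 19.7 and 30.5. TRIB3 was at 30.6 and 65.3, NCK1 at 35.1 and 37.3 and EIF2AK3, the other way, at 29.9 and 16.6. No values with a ρ0 control library left out are given for the further genes. The further translocation genes had 14 of 20 higher and 1 lower in parental and 9 higher and 2 lower in ρ0 cells. Of them 0 had a larger and 7 a smaller response in ρ0 cells, beside 21.6% and 18.8% of all genes. SRPRB, the receptor subunit for the signal recognition particle, rose by 1.45 and SEC11C, a signal peptidase subunit, by 1.39 in parental cells, and in ρ0 cells SEC11C rose by 0.93 while SRPRB did not pass (0.42). SEC63, which couples BiP to the channel, rose in both lines (1.14 and 1.14).

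Further folding genes had 5 higher and 6 lower of 17 tested in parental and 8 higher and 1 lower in ρ0 cells. FKBP10, a prolyl isomerase for collagen, fell by 1.01 in parental cells, where it stood at 138 to 288 CPM. In ρ0 cells, where it was almost silent at 0.66 to 1.69 CPM, it was called higher (1.13). CLGN, a calnexin-like chaperone, fell by 1.93 in parental and rose by 0.62 in ρ0 cells, and ERO1B, an oxidase of disulfide formation, rose by 0.67 in ρ0 cells (-0.17 in parental cells, not called). Further ERAD genes had 7 higher and 2 lower of 19 in parental and 9 and 3 in ρ0 cells, and VIMP, a selenoprotein of the derlin complex, rose in both lines (1.59 and 0.79). NGLY1, which strips glycans from ERAD substrates, rose in both as well (1.14 and 0.48), and RHBDD1, a rhomboid protease, rose in ρ0 cells (0.73). N-glycosylation had 4 higher and 2 lower of 10 in parental and 2 and 0 in ρ0 cells. PRKCSH, a glucosidase II subunit, fell by 1.19 and OSTC, an oligosaccharyltransferase subunit, rose by 0.99 in parental cells. STT3A and STT3B, catalytic subunits of that enzyme, rose in both lines, STT3A by 0.62 in parental and 0.63 in ρ0 cells and STT3B by 0.35 and 0.44. ER to Golgi transport had 8 higher and 2 lower of 18 in parental and 2 and 2 in ρ0 cells, with falls of TMED10, a cargo receptor, in both lines (-1.43 and -0.63). KDELR3, a retrieval receptor, fell by 1.61 in parental cells, and SEC24B of the COPII coat rose in both lines (1.20 and 0.87). The further transcription factors had 4 higher and 3 lower of 10 in parental and 0 and 1 in ρ0 cells. CREB3L4 fell by 1.92 in parental cells. CREB3L3 was called lower in both lines, but was at 0.35 CPM or less in every parental library, so no fold is given there, and its ρ0 difference was -1.02.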

How the data were processed

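Total RNA from 8 libraries of MDA-MB-231 cells was sequenced. The authors deposited raw read counts, 1 row per gene symbol, with no normalization and no pooled columns. The submitters' processing notes name Bowtie, Partek and the build hg19 without versions or roles, and the counting program, annotation and strand setting are not given in the sources used here. Mitochondrial-genome genes were not analysed here. A list of leukocyte markers is not reported here.

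The table held 23393 genes, 20083 with a count, and totals ran from 25259503 to 31022155 per library, so that single low genes such as DERL3 are limited by counting. Libraries were grouped by the labels, 2 to a group. Genes were filtered with filterByExpr (15262 kept) and scaled by TMM. Group means of all 8 libraries were fitted with edgeR 4.0.16 (glmQLFit and glmQLFTest, R 4.3.3), which gave 4 residual degrees of freedom, a prior of 3.40 and a biological coefficient of variation of 12.4%. P-values were adjusted by Benjamini-Hochberg over all tested genes. The 5 comparisons were the effect of starvation in parental and in ρ0 cells, whether these responses differed, and the lines compared without and with starvation. The fits were tested on simulated data with the same spread in every group. The wider spread of the ρ0 control group was thus not part of that test.

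The members and lists were chosen with earlier results of these data known, so no count over them is independent evidence. Values per library are printed for the sensors and for the members among the 3 largest called changes of their class in a response, in the difference between responses or between control lines, 35 in all. Of the genes that are no members, those with the 2 largest called changes of their list in either response are named. Alternatives were scaling by total counts, by upper quartile or by DESeq2 size factors, at least 10 counts in every library or no filter, DESeq2 1.42.0, limma-voom (limma 3.58.1) with and without weights per group, the replicate number as a block, an added log2 threshold of 1, a fit to 1 line alone and each library left out. Removing a GC and length trend (spline of 5 degrees of freedom, GENCODE annotation, 95.5% of tested genes covered) was chosen after the data were seen. Promoters were taken from RefSeq for GRCh38.p14, and no member coordinates were converted between builds.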

Additional observations from a re-analysis of the deposited data

Results flagged for a closer look

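The difference between the responses of the 2 lines, tested directly as an interaction, passed an adjusted p of 0.05 (edgeR) for 21 of 47 members. Over all tested genes 40.4% passed, which is a similar share. All 21 kept their sign with either ρ0 control library left out, and the values in these runs (without replicate 1, then without replicate 2) follow each difference below.

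In 10 members the response was larger, or the fall smaller, in ρ0 cells. The differences on the log2 scale were 2.15 for ATF6B (2.56 and 1.81), 1.54 for PDIA4 (2.07 and 1.13), 1.35 for WFS1 (1.55 and 1.15) and 1.33 for MBTPS1 (1.86 and 0.92). OS9 had 0.95 (1.14 and 0.76), ERN1 0.93 (0.79 and 1.08) and SEL1L 0.82 (1.10 and 0.57). P4HB had 0.76 (1.11 and 0.46), DNAJC10 0.70 (0.87 and 0.53) and ATF6 0.43 (0.45 and 0.38).

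In 11 members the response was smaller in ρ0 cells or of the other sign. DERL3, with few counts, had -2.88 (-3.29 and -2.28). The channel and receptor subunits had -1.41 for SEC61G (-1.32 and -1.53), -1.02 for SEC61B (-1.07 and -0.98) and -0.73 for SSR2 (-0.48 and -0.97). CREB3 had -0.96 (-0.82 and -1.12), XBP1 -0.86 (-0.58 and -1.12), DERL2 -0.78 (-0.73 and -0.86) and TXNDC11 -0.68 (-0.56 and -0.82). CRELD2 had -0.60 (-0.50 and -0.71), DERL1 -0.46 (-0.41 and -0.53) and DNAJB11 -0.38 (-0.38 and -0.39). In control medium CREB3, DERL2, DERL3, SEC61B, SEC61G, TXNDC11 and DNAJB11 were already higher in the ρ0 line. DERL1 was lower there (-0.23), and XBP1, SSR2 and CRELD2 were not called. Both comparisons use the same control libraries, so they are not independent.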

How the results depend on the processing

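Counts of members, higher and lower, are given in that order. An added log2 threshold of 1 left 8 and 5 in the parental response, 6 and 0 in the ρ0 response, 2 and 3 between control lines and 6 and 2 between starved lines. With voom weights per group, 14 fell in the parental and 2 in the ρ0 response, 17 had a larger response in ρ0 cells, and 27 and 17 differed between starved lines. The fit to the ρ0 libraries alone gave 10 and 0, total counts gave 9 higher between control lines, and the GC and length trend with the block gave 3 lower in ρ0 cells. Leaving out 1 library at a time gave 19 to 27 and 5 to 14 in the parental response, 11 to 37 and 0 to 11 in the ρ0 response, 4 to 27 and 5 to 18 for the difference between responses, 8 to 27 and 8 to 25 between control lines and 10 to 27 and 5 to 15 between starved lines. The highest counts came from leaving out a ρ0 control library, where more of all genes were called as well.

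Some values turned sign. ATF6 between starved lines was 0.32 with the GC and length trend removed, and 0.32 with the replicate block as well. Without ρ0 control replicate 2, MBTPS1 was -0.31 in the ρ0 response (0.59 without replicate 1) and 0.21 between control lines (-0.76), and PDIA4 -0.27 in the ρ0 response (0.63). Without ρ0 control replicate 1, HYOU1 was -0.32 between control lines (0.33 without replicate 2) and HERPUD1 -0.29. The cause was not tested. Values of the 35 members printed per library and of the class medians were counted together under the settings other than leaving a library out. Of these, 2083 were unchanged, 74 lost and 79 gained a call, 37 moved and 2 turned sign.

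Upper quartile and total count scaling moved the median of all genes in the parental response from -0.07 to -0.19 and -0.23, and the members to 21 and 10 and to 20 and 11. Replicate numbers did not pair the libraries (correlations of deviations from -0.0971 to 0.0632), and with the replicate block the counts were 23 and 8 in the parental response, 19 and 4 in the ρ0 response, 10 and 11 for the difference between responses, 13 and 13 between control lines and 15 and 11 between starved lines.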
